A study of Mus musculus with 18 samples.

Results

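The genes described are 10 markers of mast cells and basophils: *Cpa3*, *Mcpt8*, *Prss34*, *Fcer1a*, *Ms4a2*, *Cd200r3*, *Hdc*, *Kit*, *Gata2* and *Il4*. They were chosen by name, as the rows of the deposited table whose symbol is one of these names. Each name was found once, so the group makes up 10 of 62197 rows. Mast cells and basophils carry the high-affinity receptor for IgE and store histamine and proteases in granules, which they release when antigen crosslinks the bound IgE. Both arise from bone marrow progenitors that depend on the transcription factor GATA2, and mast cells further need the receptor KIT. Bone marrow grown with GM-CSF yields DCs and macrophages, and such cultures can also hold granulocytes and remaining progenitors. According to the Methods, cells were harvested by how firmly they stuck to the plate, a step meant to leave out floating granulocytes and firmly attached macrophages.

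The libraries are bulk RNA-seq of bone marrow-derived DCs, made to ask how the response of DCs to a change of shape depends on cPLA_2_, a phospholipase that releases arachidonic acid from membranes. In cPLA_2_ KO animals, floxed *Pla2g4a* alleles were combined with a Cre transgene driven by the *Itgax* promoter, which is active in CD11c-positive cells. Marrow donors were 6 to 8 weeks old, breeders had been crossed back to C57BL/6 for 7 generations, and the controls were stated to be littermates or mice of the same age. Cultures ran for 10 days with 50 ng per ml GM-CSF, and over 90% of the cells they yield were stated to carry CD11c. The 6 conditions hold 3 libraries each, 18 in all. Nonconfined cPLA_2_ WT and nonconfined cPLA_2_ KO cells received no treatment and were taken at the end of the culture. Confined cells of both genotypes were held at a height of 3 µm and collected 4 h after confinement. The remaining libraries, labelled cPLA_2_ WT or cPLA_2_ KO, came from nonconfined cells given LPS at 100 ng per ml for 30 min by the labels, or 25 min by the Methods, and then washed and left until the next day.

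Polyadenylated RNA had been sequenced in a strand-specific way, and the values are normalized counts per gene. The reads on genes, recovered from these values, ranged from 33027230 to 61300021 per library. Nonconfined libraries held 34689393 to 45020354 reads in cPLA_2_ WT and 36034820 to 45021696 in cPLA_2_ KO cells. Confined libraries held 33592725 to 45769637 reads in cPLA_2_ WT and 33027230 to 39400286 in cPLA_2_ KO cells. The LPS libraries held 52116837 to 61300021 reads under the label cPLA_2_ WT and 39609637 to 45160523 under cPLA_2_ KO. Of the 10 genes, 9 had at least 10 normalized counts in each of the 18 libraries, and *Il4* had them in 17, with 8 reads in its lowest library. All 10 therefore passed the filter, which asked for 10 normalized counts in at least 3 libraries and left 17875 genes for the test. Values were compared by limma as log2(normalized count + 1), and a gene was called at an adjusted p under 0.05. The p-values measure the spread between libraries only, since the labels do not say whether the libraries of a condition came from separate animals.

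The genotype labels were checked with *Pla2g4a*, which encodes cPLA_2_, and with the Y-linked gene *Ddx3y*. Nonconfined libraries held 697, 686 and 770.4 normalized counts of *Pla2g4a* in cPLA_2_ WT cells and 548, 542 and 533 in cPLA_2_ KO cells. In confined cells they held 1369, 1430.3 and 1321 against 923, 871 and 919.5. The cPLA_2_ KO libraries thus lay below the cPLA_2_ WT libraries in both conditions, with transcript still present. After LPS the order was the other way round, with 1005, 969 and 967 normalized counts in the libraries labelled cPLA_2_ WT and 1065, 1032 and 1028 in those labelled cPLA_2_ KO. *Ddx3y* had at most 3.05 normalized counts in the 6 nonconfined and confined cPLA_2_ WT libraries and at least 874 in the 6 such cPLA_2_ KO libraries. *Xist*, which is transcribed from the inactive X chromosome of females, had 22734 to 33681 normalized counts in the former and 12153 to 24835 in the latter, so the cPLA_2_ KO libraries held transcripts of both kinds. Genotype and the sex of the donors cannot be told apart there. The LPS libraries held 1271, 0 and 662 normalized counts of *Ddx3y* under the label cPLA_2_ WT and 2.12, 1476 and 783 under cPLA_2_ KO, and so did not follow their labels in the way of the other 12. For this reason LPS was compared with the nonconfined libraries mainly over both labels together, and LPS libraries are named by their label only. That comparison still takes the LPS libraries to hold both genotypes in equal shares, which the labels do not secure.

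The group's name was set beside the data through 18 further genes of mast cell granules and surface. Of these, 10 did not pass the filter, among them *Mcpt4*, *Mrgprb1* and *Rgs13*, and *Tpsab1*, *Mcpt9*, *Mrgprb2* and *Mrgprx2* were at 0 in all 18 libraries. A row at 0 does not show that a transcript was absent, since *Vamp7*, which many cell types express, was also at 0 in all of them. The other 8 were tested, and the most abundant of the list was *Cyp11a1*, with a mean of 2538 normalized counts in nonconfined cPLA_2_ WT cells. The mast cell proteases *Cma1* and *Tpsb2* were among these 8, at 55.3 ± 9.57 and 50.6 ± 14.1 normalized counts there (SD, n = 3). The 16 genes of a basophil list, 6 of them among the 10 described, all passed the filter, which does not show that basophils were present. *Ifitm1* alone held 90082 of the 109204 normalized counts that this list summed to in nonconfined cPLA_2_ WT cells. *Mcpt8*, *Prss34* and *Cd200r3*, which mark basophils in mice, had reads in every library. The level per length of the 10 genes, in CPM per kilobase of exon, was highest for *Cpa3*, *Prss34* and *Mcpt8* in nonconfined cells of both genotypes. In nonconfined cPLA_2_ WT cells this level was 60.5 ± 2.15 (SD, n = 3) for *Cpa3*, 55.9 ± 2.36 for *Prss34* and 51.2 ± 2.05 for *Mcpt8*. On the same scale it was 4.36 ± 0.446 for *Ms4a2*, 3.13 ± 0.0395 for *Hdc* and 2.82 ± 0.731 for *Fcer1a*. *Gata2* followed at 2.43, *Kit* at 2.28, *Cd200r3* at 0.894 and *Il4* at 0.354.

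**Figure D1:**
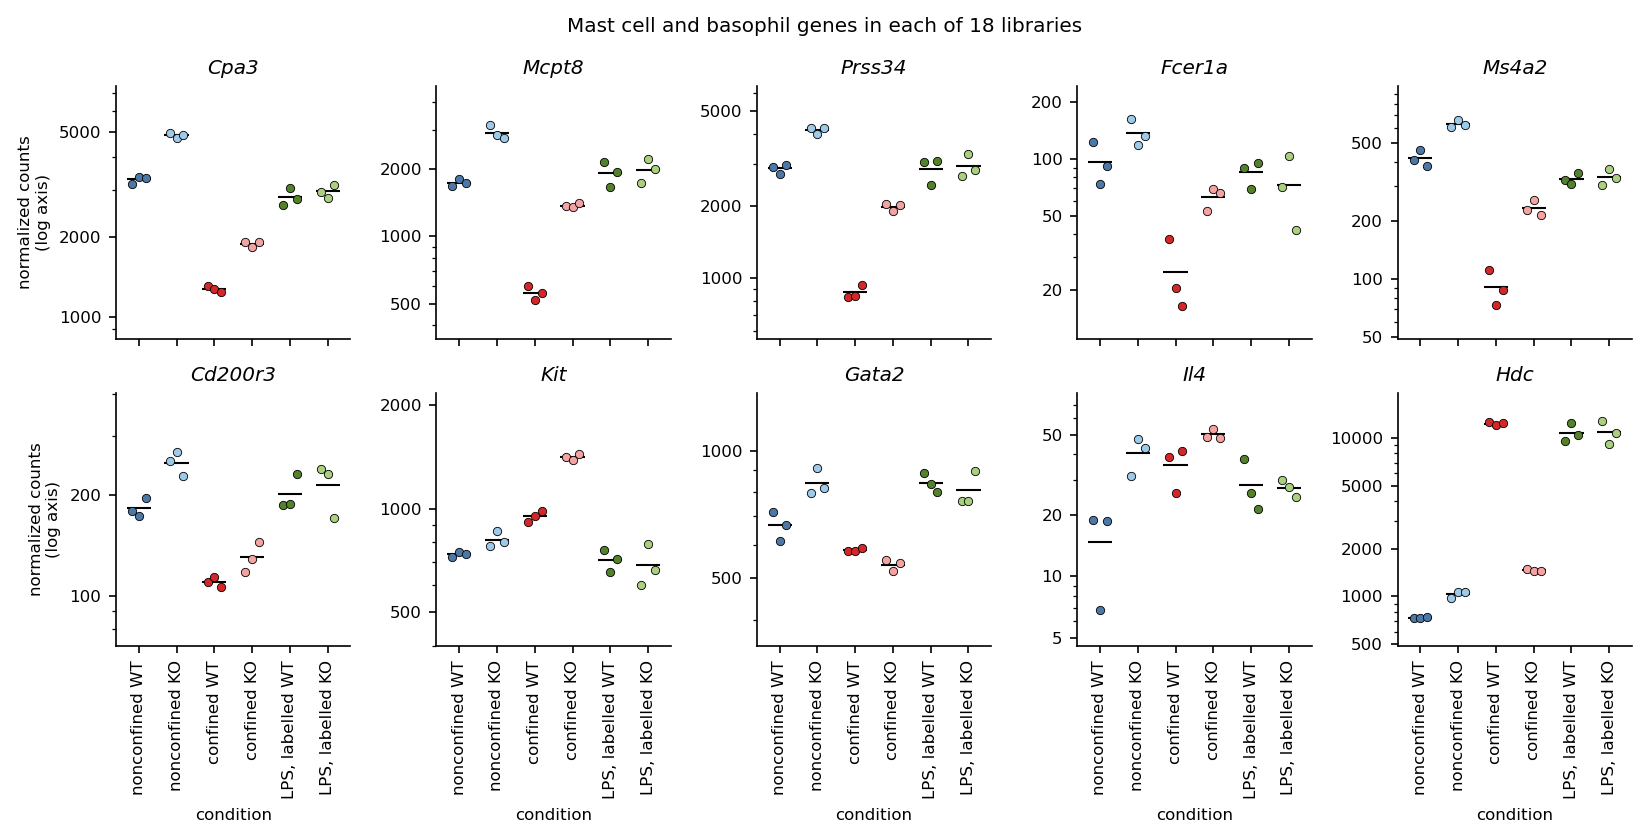
Normalized counts (log axis) of the 10 genes in each of 18 libraries, by condition, with 1 dot per library and a bar at the mean of 3. *Hdc* stood at 12068.5 to 12596 in confined cPLA_2_ WT and at 1437 to 1497 in confined cPLA_2_ KO cells, whereas *Cpa3* was lowest in confined cPLA_2_ WT cells, at 1241 to 1313.

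The first question was how confinement changed these transcripts in each genotype. In cPLA_2_ WT cells limma called all 10 genes between confined and nonconfined libraries, 3 higher and 7 lower, where 56.6% of all genes tested were called, 28.2% higher and 28.4% lower. The median log2 fold change of the 10 was -1.05, against -0.01 over all genes. In cPLA_2_ KO cells it called 9, of which 2 were higher and 7 lower, where 46.3% of all genes were called, and the median of the 10 was -0.9999 against 0.01. The change with confinement differed between the genotypes, by the interaction term, for 6 of the 10, with 25.8% of all genes called. Between genotypes, 8 of the 10 were higher in nonconfined cPLA_2_ KO than cPLA_2_ WT cells, and the other 2 were not called, where 8.88% of all genes were called and 4.78% were called higher. Without replicate 2 of nonconfined cPLA_2_ WT it was 5 genes, with 4.68% of all genes called, and leaving out any library gave 4.23% to 11.7% of all genes. In confined cells 6 were higher in cPLA_2_ KO and 1 was lower, with 39.4% of all genes called. These comparisons share libraries, so their values are set side by side and not taken as independent. Scaling each library to the same total moved the median of all genes by more than 0.1 in some comparisons, to -0.23 for confinement in cPLA_2_ WT cells, to 0.19 for cPLA_2_ KO against cPLA_2_ WT in confined cells and to 0.24 for the interaction. The calls over all genes moved with it, from 5038 higher and 5075 lower to 3578 and 7380 for confinement in cPLA_2_ WT cells, from 3356 and 3682 to 6001 and 2604 between genotypes in confined cells, and from 1823 and 2796 to 4741 and 1962 for the interaction. Of the 10 genes, 2 were then higher and 7 lower with confinement in cPLA_2_ WT cells, 7 and 1 between genotypes in confined cells, and 4 and 1 for the interaction. Fitted without the 6 LPS libraries, a choice made after seeing the data, the counts were 10, 9, 6, 8 and 7 in the same order. The shares of all genes called were then 58.5%, 48.6%, 29.2%, 12.4% and 42%. In bulk RNA, fewer cells of a type and less RNA per cell cannot be told apart.

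*Cpa3* encodes carboxypeptidase A3, which mast cells store in their granules and which basophils also express, and its locus in GRCm39 spans 20269775 to 20296346 of chromosome 3 (minus strand, identifier GSMG0035020, 11 exons in the canonical transcript). Nonconfined libraries held 3187, 3380.2 and 3337 normalized counts in cPLA_2_ WT and 4957, 4731 and 4847 in cPLA_2_ KO cells, and confined libraries held 1313, 1271 and 1241 in cPLA_2_ WT and 1919.6, 1839 and 1911 in cPLA_2_ KO cells. The 4 groups did not overlap, with every confined library below every nonconfined one and, in each condition, every cPLA_2_ KO library above every cPLA_2_ WT one. *Cpa3* fell with confinement to 38.6% of its nonconfined mean in cPLA_2_ WT cells, a log2 fold change of -1.37 (limma, standard error 0.05, adjusted p = 5.67e-15). It fell to 39.0% in cPLA_2_ KO cells, with a log2 fold change of -1.36 (limma, adjusted p = 2.59e-14). The difference between these changes was 0.01 on the log2 scale and was not called (limma, standard error 0.08, adjusted p = 0.923). Between genotypes it differed in both conditions, with log2 fold changes of cPLA_2_ KO against cPLA_2_ WT of 0.55 in nonconfined cells and 0.57 in confined cells (limma, adjusted p = 2.29e-06 and 2.83e-08). These were 0.52 and 0.72 with the same total per library, and the difference between the changes with confinement was then 0.20 and was not called (limma, adjusted p = 0.0536, the lowest of a range up to 0.997 over all alternatives).

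*Mcpt8* encodes a serine protease of basophil granules (chromosome 14, minus strand, 56319616 to 56322730, identifier GSMG0017263). Nonconfined libraries held 1687, 1809 and 1735 normalized counts in cPLA_2_ WT and 3155, 2867 and 2754 in cPLA_2_ KO cells, and confined libraries held 599, 521 and 558 against 1367, 1351 and 1412. Confined cPLA_2_ KO libraries thus lay between the confined and the nonconfined cPLA_2_ WT libraries, with no overlap. *Mcpt8* fell with a log2 fold change of -1.64 in cPLA_2_ WT cells (limma, standard error 0.09, adjusted p = 8.26e-13) and of -1.08 in cPLA_2_ KO cells (limma, standard error 0.09, adjusted p = 1.83e-09). The fall was smaller in cPLA_2_ KO cells, by 0.56 on the log2 scale (limma, standard error 0.12, adjusted p = 0.00187). The level in cPLA_2_ KO cells was 1.68-fold that in cPLA_2_ WT cells without confinement and 2.46-fold with it, log2 fold changes of 0.74 and 1.30 (limma, adjusted p = 1.78e-05 and 8.08e-11).

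*Prss34* encodes another serine protease of basophils and of mucosal mast cells (chromosome 17, plus strand, 25517365 to 25519135, identifier GSMG0022531). It had 2922, 2736 and 2983 normalized counts in nonconfined cPLA_2_ WT and 4262, 4010.3 and 4245 in nonconfined cPLA_2_ KO libraries, and 832, 839 and 933 against 2034, 1917 and 2016 in confined libraries. The order of the 4 groups was that of *Mcpt8*, again without overlap. *Prss34* fell with a log2 fold change of -1.73 in cPLA_2_ WT and of -1.07 in cPLA_2_ KO cells (limma, adjusted p = 7.56e-14 and 5.99e-10), a difference of 0.66 (limma, standard error 0.11, adjusted p = 0.000135). Cells of the cPLA_2_ KO genotype held more of it, with log2 fold changes of 0.53 in nonconfined and 1.20 in confined cells (limma, adjusted p = 0.000256 and 7.76e-11). The ratio of *Prss34* to *Cpa3* counts within a library was 0.874 ± 0.0566 (SD, n = 3) in nonconfined and 0.682 ± 0.0620 in confined cPLA_2_ WT cells, but 0.861 ± 0.0141 and 1.05 ± 0.00892 in cPLA_2_ KO cells. *Prss34* and *Cpa3* therefore did not keep a fixed proportion to each other.

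*Fcer1a* and *Ms4a2* encode the alpha chain, which binds IgE, and the beta chain, which amplifies the signal, of the high-affinity IgE receptor. *Ms4a2* (chromosome 19, minus strand, 11592884 to 11601084) had 408, 464 and 382 normalized counts in nonconfined cPLA_2_ WT and 607, 658 and 619 in nonconfined cPLA_2_ KO libraries, and 111, 73.7 and 87.7 against 226, 254 and 214 in confined libraries. The 4 groups were apart, and confined cPLA_2_ WT libraries averaged 21.7% of nonconfined ones. *Ms4a2* fell with a log2 fold change of -2.21 in cPLA_2_ WT cells (limma, standard error 0.13, adjusted p = 2.75e-12) and of -1.44 in cPLA_2_ KO cells (limma, standard error 0.13, adjusted p = 6.6e-09). These falls differed by 0.76 on the log2 scale (limma, standard error 0.18, adjusted p = 0.00282). *Ms4a2* was higher in cPLA_2_ KO cells in both conditions, with log2 fold changes of 0.59 and 1.35 (limma, adjusted p = 0.00565 and 1.72e-08).

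*Fcer1a* (chromosome 1, minus strand, 173048838 to 173054796) was scarcer, at 123, 73.3 and 91.4 normalized counts in nonconfined cPLA_2_ WT and 163, 118 and 132 in nonconfined cPLA_2_ KO libraries, and at 37.7, 20.6 and 16.6 against 52.9, 69.3 and 65.6 in confined libraries. Only the 2 nonconfined groups overlapped. With 14 reads in its lowest library, its fold changes had larger errors than those of the proteases. *Fcer1a* fell with a log2 fold change of -1.95 in cPLA_2_ WT cells (limma, standard error 0.31, adjusted p = 1.16e-05) and of -1.12 in cPLA_2_ KO cells (limma, standard error 0.31, adjusted p = 0.00473). The difference between these changes, 0.83, was not called (limma, standard error 0.43, adjusted p = 0.173), whereas without replicate 1 of confined cPLA_2_ WT it was 1.16 and was called (limma, adjusted p = 0.0459, within a range of 0.0459 to 0.371 over all alternatives). Between genotypes the log2 fold change was 0.54 in nonconfined cells, which was not called (limma, adjusted p = 0.324), and 1.37 in confined cells, which was (limma, adjusted p = 0.0011).

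The receptor hands its signal to proteins that many leukocytes share, here a list of 15 genes that all passed the filter, with *Fcer1g* the most abundant. With confinement 9 of the 15 rose and 5 fell in cPLA_2_ WT cells, from 2.01 for *Rabgef1* to -2.22 for *Grap2* on the log2 scale. The median was 0.23 for the list and -0.01 over all genes. For this list and those below, 56.6% of all genes were called for confinement in cPLA_2_ WT and 46.3% in cPLA_2_ KO cells. Between genotypes it was 8.88% in nonconfined and 39.4% in confined cells, and 25.8% for the interaction. Confined cPLA_2_ KO cells had 7 higher and 3 lower, the former led by *Lat* at 1.10 and the latter by *Grap2* at -1.34. *Lat2*, at 0.25, was the gene called between genotypes in nonconfined cells, and in confined cells 6 were higher and 6 lower in cPLA_2_ KO cells.

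*Cd200r3* encodes an activating receptor of the CD200 receptor family on basophils and mast cells (chromosome 16, plus strand, 44764041 to 44801743). It had 179, 173 and 196 normalized counts in nonconfined cPLA_2_ WT and 252, 268 and 228 in nonconfined cPLA_2_ KO libraries, and 110.2, 114 and 107 against 118, 129 and 145 in confined libraries. The 4 groups did not overlap, but those of the 2 genotypes lay close together in confined cells. It fell with a log2 fold change of -0.72 in cPLA_2_ WT and of -0.93 in cPLA_2_ KO cells (limma, adjusted p = 0.000143 and 1.16e-05), and these changes were not called different, at -0.21 (limma, standard error 0.20, adjusted p = 0.487). Over all alternatives this difference ran from -0.29 to -0.02. *Cd200r3* was called higher in nonconfined cPLA_2_ KO cells by a narrow margin, with a log2 fold change of 0.45 (limma, standard error 0.14, adjusted p = 0.0492). That call held in 14 of 31 alternatives, whose adjusted p from limma and the count models ran from 0.0191 to 0.159. It was lost without any of the 6 nonconfined libraries, at log2 fold changes of 0.39 to 0.51. It was also lost, at an unchanged 0.45, without any of the confined cPLA_2_ WT libraries, without replicate 2 or 3 of confined cPLA_2_ KO and without replicate 1 of LPS labelled cPLA_2_ WT. The replicate block and the lack of a filter also ended it at 0.45, the same total per library at 0.41, and either fold threshold by its size. In confined cells its log2 fold change between genotypes, 0.24, was not called (limma, adjusted p = 0.196), but with the same total per library it was 0.39 and was called (limma, adjusted p = 0.0277, in a range of 0.0277 to 0.477 over all alternatives).

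*Hdc* encodes histidine decarboxylase, the enzyme that makes histamine, and stood apart from the other members (chromosome 2, minus strand, 126435582 to 126460600, identifier GSMG0032735, 12 exons in the canonical transcript). Which cells held this transcript was not tested, so its changes are not shown to be those of mast cells or basophils. Nonconfined libraries held 730.0, 732 and 744 normalized counts in cPLA_2_ WT and 981, 1071 and 1068 in cPLA_2_ KO cells. Confined libraries held 12596, 12068.5 and 12444 normalized counts in cPLA_2_ WT but 1497, 1437 and 1439.9 in cPLA_2_ KO cells. Every confined cPLA_2_ WT library was therefore far above every library of the other 3 groups, which were in turn apart from each other. *Hdc* rose 16.8-fold with confinement in cPLA_2_ WT cells, a log2 fold change of 4.07 (limma, standard error 0.09, adjusted p = 2.25e-19). In cPLA_2_ KO cells it rose 1.40-fold, a log2 fold change of 0.49 (limma, standard error 0.09, adjusted p = 0.000133). The difference between these changes was -3.58 (limma, standard error 0.13, adjusted p = 2.2e-15). *Hdc* was thus higher in cPLA_2_ KO than cPLA_2_ WT cells without confinement, with a log2 fold change of 0.50 (limma, adjusted p = 0.00134), and lower with it, at 11.8% of the cPLA_2_ WT mean and a log2 fold change of -3.08 (limma, adjusted p = 3.46e-17). Per length, *Hdc* was the highest of the 10 genes in confined cPLA_2_ WT cells, at 45.1 ± 0.382 CPM per kilobase (SD, n = 3) against 19.99 ± 0.416 for *Cpa3*, but ranked 4 of 10 in confined cPLA_2_ KO cells, at 5.92 ± 0.0805. The ratio of *Hdc* to *Cpa3* counts was 0.223 ± 0.00619 in nonconfined and 9.70 ± 0.282 in confined cPLA_2_ WT libraries, and 0.215 ± 0.0150 and 0.772 ± 0.0157 in cPLA_2_ KO libraries.

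A list of 8 genes for making, storing, degrading and sensing histamine holds *Hdc*, and all 8 passed the filter. With confinement 2 rose and 5 fell in cPLA_2_ WT cells, with *Hdc* at one end and the receptor gene *Hrh4* at the other, at a log2 fold change of -2.96. As many rose and fell in cPLA_2_ KO cells, 2 and 5, led by *Hnmt*, whose enzyme methylates histamine, at 0.99 and by *Aoc1*, whose enzyme oxidizes it, at -2.78. *Hdc* was the gene of the list called for the interaction of confinement and genotype. In confined cells 4 were higher in cPLA_2_ KO than cPLA_2_ WT cells, with *Hrh4* at 2.14, and 2 were lower.

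*Kit* encodes the receptor for stem cell factor, which mast cells and early progenitors carry (chromosome 5, plus strand, 75735647 to 75817379). It had 724, 747 and 739 normalized counts in nonconfined cPLA_2_ WT and 779.6, 860.1 and 801 in nonconfined cPLA_2_ KO libraries, and 913, 953 and 987 against 1411, 1383 and 1446 in confined libraries. Every confined library was above every nonconfined one, opposite to the proteases and the IgE receptor. *Kit* rose with a log2 fold change of 0.37 in cPLA_2_ WT cells (limma, standard error 0.08, adjusted p = 0.000592) and of 0.80 in cPLA_2_ KO cells (limma, standard error 0.08, adjusted p = 6.42e-08). The rise was larger in cPLA_2_ KO cells, by 0.43 (limma, standard error 0.12, adjusted p = 0.00794). With the same total per library the rise in cPLA_2_ WT cells was 0.14 and was not called (limma, adjusted p = 0.123, the highest over all alternatives, of which the lowest was 2.08e-05). Between genotypes the log2 fold change was 0.14 in nonconfined cells, which was not called, and 0.57 in confined cells (limma, adjusted p = 0.328 and 7.41e-06).

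KIT and the interleukin 3 receptor signal in part through STAT5. Of 9 genes of these pathways 7 passed the filter, and the ligand genes *Kitl* and *Il3* did not. With confinement 6 of the 7 rose and the other was not called by limma in cPLA_2_ WT cells, with *Stat5a* at a log2 fold change of 1.77. The rises numbered 5 in cPLA_2_ KO cells, with *Kit* itself the most changed, and *Il3ra* fell, at -0.42. *Stat5a* was lower in confined cPLA_2_ KO than cPLA_2_ WT cells, at -1.70, and *Kit* was the gene of the list that was higher. *Csf2rb* was the most abundant of these genes and was lower in nonconfined cPLA_2_ KO cells, at -0.31.

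*Gata2* encodes a zinc finger transcription factor of mast cells, basophils and progenitors (chromosome 6, plus strand, 88170873 to 88184012). It had 718, 614 and 667 normalized counts in nonconfined cPLA_2_ WT and 796, 910.4 and 816 in nonconfined cPLA_2_ KO libraries, and 582, 579 and 589.9 against 554, 520.4 and 544 in confined libraries. Confined libraries lay below nonconfined ones, and the order of the genotypes was opposite in the 2 conditions, but not with the same total per library, where the log2 fold change between genotypes in confined cells was 0.04. *Gata2* fell with a log2 fold change of -0.64 in cPLA_2_ KO cells (limma, standard error 0.08, adjusted p = 9.11e-07). In cPLA_2_ WT cells it was -0.19 and barely passed (limma, standard error 0.08, adjusted p = 0.0469). That call held in 13 of 31 alternatives, with log2 fold changes of -0.41 to -0.13 and an adjusted p from limma, edgeR or DESeq2 of 9.82e-05 to 0.209. It was lost without replicate 1 or 3 of nonconfined cPLA_2_ WT, any library of either confined group, replicate 3 of nonconfined cPLA_2_ KO, or replicate 2 or 3 of LPS labelled cPLA_2_ WT, at log2 fold changes of -0.13 to -0.20. It was lost as well with the replicate block and with no filter, both at -0.19, with DESeq2, at -0.18, with TMM and with edgeR, both at -0.16, and with either fold threshold. The changes differed by -0.45 between the genotypes (limma, standard error 0.11, adjusted p = 0.0043), a call that was lost at -0.26 with the same total per library (limma, adjusted p = 0.0675, in a range of 0.00125 to 0.0675 over all alternatives). In nonconfined cells *Gata2* was higher in cPLA_2_ KO, with a log2 fold change of 0.34 (limma, adjusted p = 0.0103), which without replicate 2 of nonconfined cPLA_2_ WT was 0.28 and not called. In confined cells it was -0.11 and not called (limma, adjusted p = 0.277).

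Among 13 transcription factor genes of the lineage and of progenitors, all of them tested, confinement raised 4 and lowered 7 in cPLA_2_ WT cells. *Nfil3* rose by 2.21 on the log2 scale, and *Gata1*, which encodes a factor of mast cells, eosinophils, megakaryocytes and erythroid cells, fell by 2.16. In cPLA_2_ KO cells 3 rose and 7 fell, from *Mitf* at 1.23 to *Lmo2* at -1.25. *Gata1* was higher in confined cPLA_2_ KO than cPLA_2_ WT cells, with a log2 fold change of 1.74, and *Nfil3* was lower, at -1.33. In nonconfined cells *Gata2* and *Tal1* were called between genotypes, the latter at -0.56.

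*Il4* encodes interleukin 4, a cytokine that basophils and mast cells release in type 2 responses (chromosome 11, minus strand, 53503284 to 53509493). It had 19.0, 6.82 and 18.7 normalized counts in nonconfined cPLA_2_ WT and 31.3, 47.5 and 42.7 in nonconfined cPLA_2_ KO libraries, and 38.7, 25.7 and 41.5 against 48.6, 53.3 and 48.3 in confined libraries. Nonconfined cPLA_2_ WT libraries were below all others, with replicate 2 the lowest at 8 reads. *Il4* rose with confinement in cPLA_2_ WT cells, with a log2 fold change of 1.29 (limma, standard error 0.34, adjusted p = 0.0029), and the change in cPLA_2_ KO cells, 0.32, was not called (limma, standard error 0.34, adjusted p = 0.478). With libraries left out in turn the value in cPLA_2_ KO cells ran from 0.15 to 0.44. The difference between these changes was -0.97 and was not called either (limma, standard error 0.48, adjusted p = 0.157), so the genotypes were not shown to differ in this change. With libraries left out in turn this difference ran from -1.20 to -0.52. *Il4* was higher in nonconfined cPLA_2_ KO than cPLA_2_ WT cells, with a log2 fold change of 1.49 (limma, standard error 0.34, adjusted p = 0.00918). Without replicate 2 of nonconfined cPLA_2_ WT that value was 1.04 and was not called (limma, adjusted p = 0.0616), and over all alternatives the adjusted p ran from 0.0016 to 0.0723, the latter with the compared conditions alone. Without the same library the rise with confinement in cPLA_2_ WT cells was 0.84. In confined cells the log2 fold change between genotypes, 0.52, was not called (limma, adjusted p = 0.253), and ran from 0.31 to 0.65 with libraries left out in turn.

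Of 11 genes for type 2 cytokines and their receptors 8 were tested, and *Il5*, *Il9* and *Il25* did not pass the filter, *Il25* being at 0 in every library. With confinement 7 of the 8 rose in cPLA_2_ WT cells, *Tslp* most at a log2 fold change of 6.15, and *Il1rl1*, which encodes the receptor for interleukin 33, fell by 1.22. For cPLA_2_ KO cells it was 4 that rose and 2 that fell, with *Tslp* at 2.36 and *Il1rl1* at -0.69. In confined cells *Il1rl1* was higher in cPLA_2_ KO than cPLA_2_ WT cells, at 0.90, and 4 were lower, with *Il33* at -5.45.

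**Figure D2:**
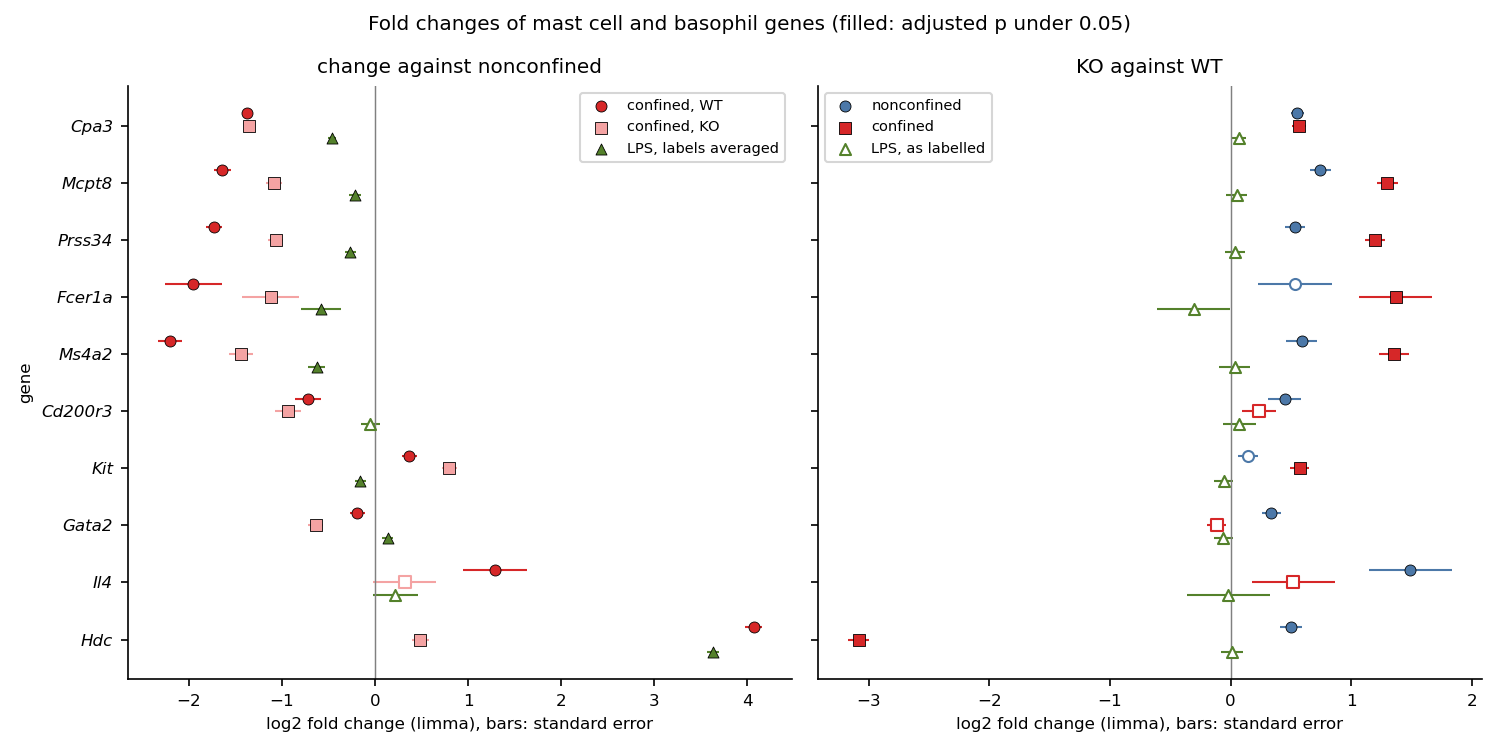
Log2 fold change from limma, with bars for the standard error, of the 10 genes against nonconfined cells (left) and of cPLA_2_ KO against cPLA_2_ WT cells (right), with filled symbols for an adjusted p under 0.05. With confinement *Hdc* stood at 4.07 in cPLA_2_ WT and 0.49 in cPLA_2_ KO cells and *Cpa3* at -1.37 and -1.36, and with LPS *Gata2* stood at 0.14, or at -0.36 with the same total per library.

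The comparison with LPS asked how the same transcripts stood after a microbial stimulus. LPS cells had also been washed and left until the next day, which was not stated for nonconfined or confined cells. LPS and that step cannot be told apart here. Over both labels together limma called 8 of the 10 genes against nonconfined cells, 2 higher and 6 lower, where 71.5% of all genes tested were called. Their median log2 fold change was -0.19, against 0.02 over all genes. By label, each against the nonconfined libraries of that genotype, 5 were called under cPLA_2_ WT, 3 higher and 2 lower, and 7 under cPLA_2_ KO, 1 higher and 6 lower, with 62.8% and 63.5% of all genes called. The medians of the 10 were 0.06 and -0.52. The counts were 1 higher and 7 lower with the same total per library under cPLA_2_ WT, 1 and 9 under cPLA_2_ KO and 1 and 8 over both labels, where 3640 of all genes were called higher and 10160 lower in place of 6648 and 6126. The values by label are descriptions of the libraries as named, since the labels went against *Pla2g4a* and *Ddx3y*. The fit over both labels counts the LPS libraries as separate, although some of their values were alike in pairs across the labels. If they are not separate, its standard errors and p-values are too small. Without replicate 2 of nonconfined cPLA_2_ WT the count under the label cPLA_2_ WT was 3. The share of all genes called under that label was 58.9% to 63.3% over the libraries left out in turn. Scaling to the same total moved the median of all genes to -0.46 over both labels. Between the labels, limma called 0 of the 10 genes and 0 of all 17875, or 0%, with 890 genes at an unadjusted p under 0.05. The edgeR and DESeq2 fits on recovered reads also called 0 genes. Of all 30 alternatives 4 called some, with 1.77% at a fold of 1.5 and an unadjusted p, 0.00318% with no filter, 0.0168% without replicate 2 labelled cPLA_2_ WT and 0.00559% without replicate 2 labelled cPLA_2_ KO, and 0 of the 10 genes in each. The replicate block paired the libraries of the 2 labels by replicate number, and the other fits did not pair them. No fit paired libraries across replicate numbers, so the counts of 0 do not show that the labels did not differ. The LPS libraries of the 2 labels overlapped for every one of the 10 genes. The share of all genes that overlap in this way was not counted, so it is not read as a trait of the 10. Their log2 fold changes between labels ran from -0.31 for *Fcer1a* to 0.07 for *Cd200r3*. With libraries left out in turn, these 2 values ran from -0.61 to 0.03 and from -0.02 to 0.23.

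*Hdc* had 9543, 12518 and 10462.5 normalized counts in the LPS libraries labelled cPLA_2_ WT and 12836, 9249.7 and 10841 in those labelled cPLA_2_ KO. All 6 were far above the nonconfined libraries, and their range overlapped that of the confined cPLA_2_ WT libraries. *Hdc* rose 12.4-fold over both labels, a log2 fold change of 3.63 (limma, standard error 0.06, adjusted p = 5.95e-22), with 3.87 and 3.39 by label. Confined cPLA_2_ KO cells, at 1458 ± 33.5 normalized counts (SD, n = 3), were the one group that stood neither with the nonconfined libraries nor with this higher set.

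*Cpa3* had 2652, 3074 and 2795 normalized counts in LPS libraries labelled cPLA_2_ WT and 2955, 2819 and 3159.7 in those labelled cPLA_2_ KO, all below the nonconfined libraries and above the confined ones. It fell with a log2 fold change of -0.46 over both labels (limma, standard error 0.04, adjusted p = 5.79e-10), or of -0.96 with the same total per library. *Mcpt8* had 2154, 1661 and 1942 under the label cPLA_2_ WT and 1737, 2216 and 1999 under cPLA_2_ KO, and *Prss34* had 3053, 2455 and 3085.5 under the former and 2676, 3303 and 2828 under the latter. These overlapped the nonconfined cPLA_2_ WT libraries and lay below the nonconfined cPLA_2_ KO libraries. Over both labels *Mcpt8* and *Prss34* were called below the mean of the 2 nonconfined genotypes, with log2 fold changes of -0.22 and -0.26 (limma, adjusted p = 0.00375 and 0.000309). These values were -0.71 and -0.76 with the same total per library. Under the label cPLA_2_ KO, against nonconfined cPLA_2_ KO cells, they were -0.56 and -0.51. Under the label cPLA_2_ WT alone *Mcpt8* was at 0.13 and not called, but was called higher at 0.23 without replicate 2 of those LPS libraries and lower at -0.38 with the same total per library. *Prss34* under that label was at -0.01, at 0.09 without the same library, and at -0.53 and called lower with the same total per library.

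*Ms4a2* stood at 322, 309 and 349.8 normalized counts in LPS libraries labelled cPLA_2_ WT and at 304, 369.6 and 333 in those labelled cPLA_2_ KO, below all nonconfined libraries. It fell with a log2 fold change of -0.63 over both labels (limma, standard error 0.09, adjusted p = 2.04e-06), or of -1.12 with the same total per library. Under the label cPLA_2_ WT its value of -0.35 was called, but not without replicate 2 of nonconfined cPLA_2_ WT, at -0.27, or replicate 2 of those LPS libraries, at -0.31. *Fcer1a* ranged from 41.9 to 104 normalized counts over the 6 LPS libraries and overlapped the nonconfined libraries of cPLA_2_ WT cells. Its log2 fold change over both labels, -0.58, was called (limma, standard error 0.22, adjusted p = 0.0211), and was -1.07 with the same total per library. Under the label cPLA_2_ KO the values with that scaling were -1.47 for *Fcer1a*, -1.38 for *Ms4a2*, -1.04 for *Mcpt8* and -0.99 for *Prss34*, and the changes with LPS and with confinement were not tested against each other. The call of *Fcer1a* over both labels was lost without replicate 1 of either nonconfined group, at -0.48 and -0.52. It was also lost without replicate 2 of LPS labelled cPLA_2_ WT, at -0.51, and without replicate 3 of LPS labelled cPLA_2_ KO, at -0.41. Without the last of these libraries the value of *Fcer1a* under the label cPLA_2_ KO was -0.66 in place of -0.9994 and was not called.

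*Cd200r3*, at 170.3 to 239.7 normalized counts after LPS, overlapped both nonconfined groups and was not called (limma, log2 fold change -0.05, adjusted p = 0.673), whereas with the same total per library it was -0.54 and was called. *Kit* ranged from 599 to 791 and had a log2 fold change of -0.16 (limma, standard error 0.06, adjusted p = 0.0194), opposite to its rise with confinement. With the same total per library it was -0.65, and -0.57 and called under the label cPLA_2_ WT. The call for *Kit* was lost without replicate 2 of nonconfined cPLA_2_ KO, at -0.14, replicate 2 of LPS labelled cPLA_2_ WT, at -0.13, or replicate 1 of LPS labelled cPLA_2_ KO, at -0.11. Without that last library the value of *Kit* under the label cPLA_2_ KO was -0.17 in place of -0.26 and was not called, nor was it with the compared conditions alone. *Gata2* ranged from 761 to 896, with a log2 fold change of 0.14 over both labels (limma, adjusted p = 0.0343), which was -0.36 and called lower with the same total per library (limma, adjusted p = 4.69e-06, the lowest of a range up to 0.156). The call for *Gata2* was lost at 0.10 to 0.14 without replicate 2 or 3 of nonconfined cPLA_2_ WT, replicate 1 or 3 of nonconfined cPLA_2_ KO, replicate 1 of LPS labelled cPLA_2_ WT or replicate 3 of LPS labelled cPLA_2_ KO. It was also lost with TMM and with edgeR, both at 0.09, with DESeq2, at 0.11, and with the compared conditions alone, at 0.14. *Il4* ranged from 21.5 to 38.0 and was not called over both labels (limma, log2 fold change 0.22, adjusted p = 0.433). Under the label cPLA_2_ WT it was called at 0.97, but not without replicate 2 of nonconfined cPLA_2_ WT, at 0.52, or replicate 1 of those LPS libraries, at 0.75, nor with the compared conditions alone. With the same total per library *Il4* was at -0.26 over both labels, at 0.49 and not called under cPLA_2_ WT, and at -1.001 and called lower under cPLA_2_ KO, where the value had been -0.54 and not called.

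Across the 6 conditions *Cpa3* and *Ms4a2* shared an order of the group means, from confined cPLA_2_ WT through confined cPLA_2_ KO, the LPS libraries and nonconfined cPLA_2_ WT to nonconfined cPLA_2_ KO, in which only the 2 LPS groups overlapped. The highest mean was 3.80 times the lowest for *Cpa3* and 6.92 times for *Ms4a2*. *Mcpt8*, *Prss34*, *Fcer1a* and *Cd200r3* also had confined cPLA_2_ WT lowest and nonconfined cPLA_2_ KO highest, with ratios of 5.23, 4.81, 5.52 and 2.26, but their LPS groups overlapped nonconfined cPLA_2_ WT libraries in normalized counts. In CPM per kilobase, *Mcpt8* averaged 39.4 and 40.8 under the LPS labels cPLA_2_ WT and cPLA_2_ KO, against 51.2 in nonconfined cPLA_2_ WT cells. These means were 38.9 and 39.9 against 55.9 for *Prss34*, 1.74 and 1.49 against 2.82 for *Fcer1a*, and 0.692 and 0.733 against 0.894 for *Cd200r3*. *Kit* was highest in confined cPLA_2_ KO cells and *Hdc* in confined cPLA_2_ WT cells, with ratios of 2.06 and 16.8. *Gata2* spanned the smallest ratio of the 10, 1.56, and *Il4* spanned 3.37.

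As a description with no test, the genes whose 6 condition means were most like those of each member were found among 10553 genes with a symbol and a mean of at least 100 normalized counts, by the root mean square difference of centred log2 means. *Mcpt8* and *Prss34* were each other's nearest gene, at 0.0704. *Ctsg*, which encodes the granule protease cathepsin G, was among the 3 nearest of *Mcpt8*, *Prss34*, *Fcer1a* and *Ms4a2*, at 0.168, 0.122, 0.121 and 0.172, and so was the thrombin receptor gene *F2r*. The nearest gene to *Cpa3* was *Aif1*, at 0.0963, to *Cd200r3* was *Ptpn6*, at 0.102, to *Gata2* was *H2-Ab1*, at 0.0548, and to *Kit* was *Psen2*, at 0.0532. The genes nearest to *Hdc* were *Serpinb2*, at 0.174, *Dusp14*, at 0.224, and *Socs3*, at 0.250. *Il4* was nearest to *Slc39a2*, at 0.209. The means of *Il4* and *Fcer1a* lay below the limit, so neither could be found as the nearest gene of another, and *Fcer1a* lay at 0.160 from *Ms4a2*.

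Promoter sequences were compared because many of these members fell together with confinement and GATA factors act in these lineages. RefSeq promoters, given on GRCm38.p6 and thus on an older build than the GRCm39 of the counts, matched all 10 members with 13 promoters. The letters GATAA, or TTATC for the other strand, were searched in the 250 bases before each start, and these letters do not overlap another motif searched. They were found in 7418 of 32851 promoters of the table, or 22.6%, and in 5 of the 13 promoters of the members, which belong to 5 of the 10 genes. *Cpa3*, *Prss34* and *Fcer1a* had 1 match each, *Cd200r3* had 2 and *Ms4a2* had 3, whereas *Mcpt8*, *Hdc*, *Kit*, *Gata2* and *Il4* had none in this window. The 100 bases before the start are shown for *Cpa3* (chr3:20242182-20242281, minus strand), *Prss34* (chr17:25298294-25298393, plus strand), *Ms4a2* (chr19:11623720-11623819, minus strand) and *Cd200r3* (chr16:44943578-44943677, plus strand), which hold a match within 45 bases of the start, and for *Mcpt8* (chr14:56085198-56085297, minus strand), which was nearest to *Prss34* in its levels and holds none. Capitals mark the matches, which are a description of letters and not of binding.
Cpa3: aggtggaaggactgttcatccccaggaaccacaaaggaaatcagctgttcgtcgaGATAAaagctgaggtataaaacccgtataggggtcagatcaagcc
Prss34: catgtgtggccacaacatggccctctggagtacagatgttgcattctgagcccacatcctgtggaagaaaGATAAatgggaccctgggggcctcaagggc
Ms4a2: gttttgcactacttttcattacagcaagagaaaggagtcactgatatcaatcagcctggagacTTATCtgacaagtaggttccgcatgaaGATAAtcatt
Cd200r3: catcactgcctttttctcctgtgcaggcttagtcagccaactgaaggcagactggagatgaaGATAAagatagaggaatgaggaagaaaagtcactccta
Mcpt8: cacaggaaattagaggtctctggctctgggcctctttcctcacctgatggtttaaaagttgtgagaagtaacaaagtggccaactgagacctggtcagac

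Further lists of the lineage were described in the same way. Of the 8 tested genes of mast cell granules and surface, 1 rose and 5 fell with confinement in cPLA_2_ WT cells, with *Slc6a4* at 0.89 and the row shared by *Adora3* and *Tmigd3* at -2.09 on the log2 scale. The counts in cPLA_2_ KO cells were 1 and 7, led by the same rows at 0.81 and -2.04. *Cyp11a1* was the gene of this list called between genotypes in nonconfined cells, at 0.51, and *Ctsg* was the most changed of 2 that were higher in confined cPLA_2_ KO cells, at 1.34. The 10 genes of the basophil list that are not among those described were mixed, with 5 higher and 4 lower in confined than nonconfined cPLA_2_ WT cells, from *Ccl4* at 2.697 to *Gpr34* at -2.28. In confined cells 6 of these 10 were lower in cPLA_2_ KO than cPLA_2_ WT cells, *Cd69* most at -2.90, and 2 were higher. *Ifitm1* was the most abundant gene of that list.

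Mast cells and basophils also make prostaglandins and leukotrienes from the arachidonic acid that cPLA_2_ releases. Of 7 genes for these enzymes, all tested, 3 rose and 4 fell with confinement in cPLA_2_ WT cells, with *Ptgs2* at 8.76 and *Alox5* at -1.67 on the log2 scale. In cPLA_2_ KO cells 2 rose and 4 fell, with *Ptgs2* at 4.79. *Ptgs2* was lower in confined cPLA_2_ KO than cPLA_2_ WT cells, at -4.00, as *Hdc* was at -3.08. Of 9 genes of granule cores and membranes that other cells share, 8 were tested and *Vamp7* was at 0 in every library. With confinement 4 rose and 2 fell in cPLA_2_ WT cells, *Srgn*, whose product holds histamine and proteases in granules, most at 2.04, and *Rab27b* was higher in nonconfined cPLA_2_ KO than cPLA_2_ WT cells, at 0.95.

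Over both LPS labels 71.5% of all genes were called, 37.2% higher and 34.3% lower. Their median log2 fold change was 0.02, but -0.46 with the same total per library, so the balance of rises and falls depends on the scaling. After LPS, over both labels, 1 of the 8 tested mast cell granule and surface genes rose and 4 fell, with *Slc6a4* at 0.93 and the *Adora3* row at -3.04. Of the 16 basophil genes 5 rose and 7 fell, from *Ccl3* at 5.58 to *Gpr34* at -2.51. The counts were 8 up and 5 down for the IgE receptor's signalling genes, 6 up and 1 down for type 2 cytokines and receptors, with *Tslp* at 7.02, and 1 up and 2 down for histamine genes, with *Hrh1* at -2.41. They were 6 up and 1 down for KIT and interleukin 3 receptor genes, with *Stat5a* at 2.87, and 5 up and 6 down for transcription factors, with *Mitf* at 2.14. Lipid mediator enzymes gave 2 up and 5 down, with *Ptgs2* at 9.81, and the shared granule genes gave 4 up and 2 down, with *Srgn* at 1.80.

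Markers of other cells changed as well. Of 9 eosinophil markers, all tested, 7 fell and 1 rose with confinement in cPLA_2_ WT cells, and 8 fell in cPLA_2_ KO cells. In nonconfined cells 7 were higher in cPLA_2_ KO than cPLA_2_ WT, *Ear1* most at 1.61, and 1 was lower, *Siglecf* at -0.57. Their summed normalized counts were 33938, 33823 and 33773 in nonconfined cPLA_2_ WT, 83493, 77522 and 79494 in nonconfined cPLA_2_ KO, 9940.4, 9439 and 9318 in confined cPLA_2_ WT and 25194, 24839 and 25767 in confined cPLA_2_ KO libraries. *Prg2* was the most abundant, and no eosinophil marker was at 0 in all libraries. The order of these sums was that of the group means of *Cpa3*, *Mcpt8*, *Prss34*, *Fcer1a*, *Ms4a2* and *Cd200r3*. Of 14 markers of neutrophils and their progenitors, 12 fell with confinement in cPLA_2_ WT cells, while 7 fell and 1 rose in cPLA_2_ KO cells. In confined cells 13 were higher in cPLA_2_ KO than cPLA_2_ WT, and *S100a9* was the most abundant. Their sums were 244031, 248984 and 247238 in nonconfined cPLA_2_ WT and 376179, 338589 and 364122 in nonconfined cPLA_2_ KO, and 156614, 149340 and 147097 in confined cPLA_2_ WT and 337691, 350284 and 334675 in confined cPLA_2_ KO libraries. Of 10 markers of stem and progenitor cells, *Kit* and *Gata2* included, 8 were tested, and their sums were 4314, 4096 and 4169.5 in nonconfined cPLA_2_ WT, 4139, 4358 and 4131 in nonconfined cPLA_2_ KO, 2445, 2530.5 and 2632 in confined cPLA_2_ WT and 2976, 2875 and 2899 in confined cPLA_2_ KO libraries. After LPS, over both labels, 8 of the 9 eosinophil markers fell and 0 rose, and of the 14 neutrophil markers 8 fell and 5 rose. By label, each against the nonconfined libraries of that genotype, 1 eosinophil marker was lower under cPLA_2_ WT, with a median log2 fold change of 0.16. Under cPLA_2_ KO 7 were lower, with a median of -1.14. Neutrophil markers gave 7 lower and 5 higher under cPLA_2_ WT, and 9 lower and 2 higher under cPLA_2_ KO. Between the 2 labels themselves limma called 0 of the 9 eosinophil and 0 of the 14 neutrophil markers. The eosinophil sums were then 48039, 27896 and 38562 in libraries labelled cPLA_2_ WT and 27890.5, 48274 and 39142 in those labelled cPLA_2_ KO. Those of the neutrophil markers were 315021, 295912 and 297978 under the former label and 282695, 318914 and 300304 under the latter. The part of these cells in the results for the 10 genes was not tested.

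**Figure D3:**
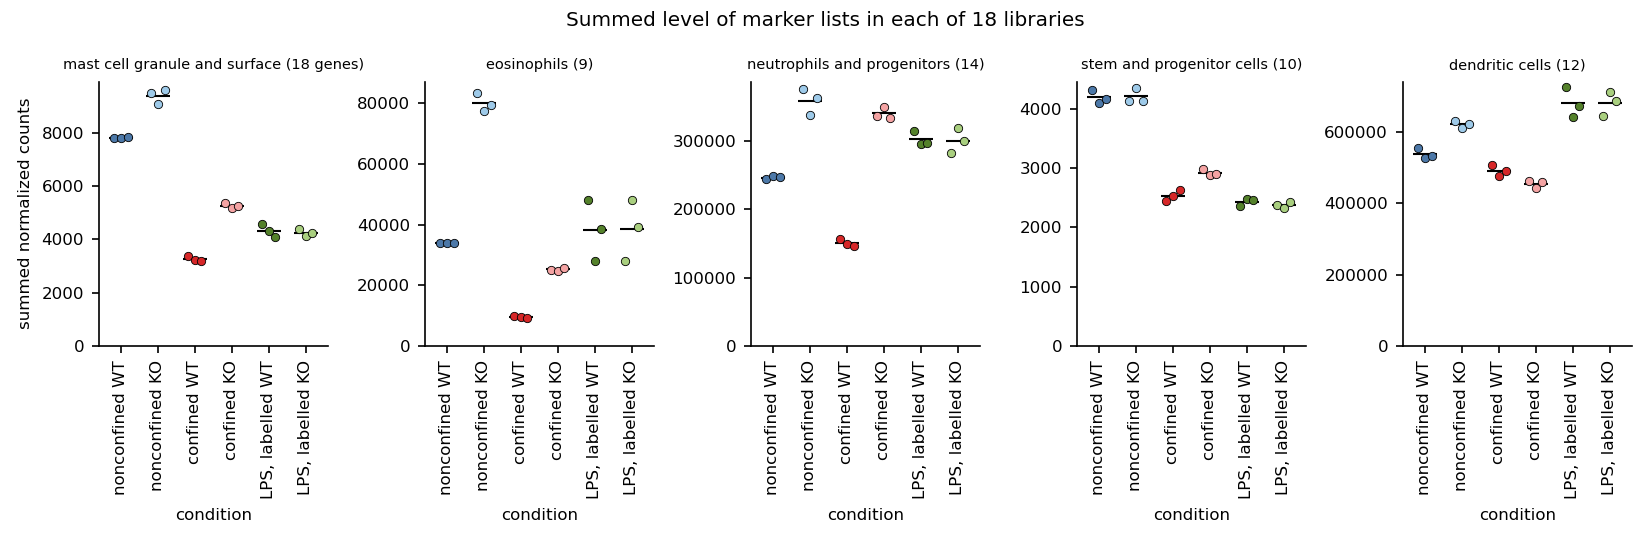
Summed normalized counts of 5 marker lists in each of 18 libraries by condition, with 1 dot per library and a bar at the mean of 3. The mean sum of 9 eosinophil markers was 9566 in confined cPLA_2_ WT and 80169.7 in nonconfined cPLA_2_ KO cells, while that of 12 DC markers was 490998 and 622308.

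The labelled cell type was present, with all 12 DC markers above the filter and *Cd74* the most abundant. Their sums in cPLA_2_ WT cells were 554728, 526350 and 531574 without confinement and 506976, 475849 and 490168 with it, and in cPLA_2_ KO cells 630609, 612539 and 623774 against 462846, 442565 and 458974. In cPLA_2_ WT cells 3 of the 12 rose and 7 fell with confinement, and in cPLA_2_ KO cells 10 fell. Macrophage markers, 10 of 10 tested, of which *Lyz2* held 238503 and 267617 normalized counts in cPLA_2_ WT cells, had a mean sum of 268523 in nonconfined and 298567 in confined cPLA_2_ WT cells, and of 304626 and 358150 in cPLA_2_ KO cells. Megakaryocyte and platelet markers, 4 of 6 tested, had mean sums of 1988 and 6338 in cPLA_2_ WT and of 2465 and 7942 in cPLA_2_ KO cells. Of these sums *Ppbp* alone made up 106 and 4223 in cPLA_2_ WT and 167 and 5631 in cPLA_2_ KO cells, while *Itga2b* fell with confinement, at -0.63 and -1.32 on the log2 scale. T cell markers, 6 tested, of which *Cd28* rose and 4 others fell with confinement in cPLA_2_ WT cells, had mean sums of 4199 and 2780.3 in nonconfined and confined cPLA_2_ WT and of 4896 and 3735 in cPLA_2_ KO cells. Markers of type 2 innate lymphoid cells and NK cells, 5 of 8 tested and led by *Il7r*, had sums of 1357 and 6549.9 in cPLA_2_ WT and of 1270.5 and 3308 in cPLA_2_ KO cells. Erythroid markers, 3 of 9 tested, with *Alas2* and *Car1* at 0 in all libraries, summed to 195 and 90.2 in cPLA_2_ WT and to 235 and 157 in cPLA_2_ KO cells, and B cell markers, 4 of 6 tested, to 45.0 and 23.7 and to 72.0 and 62.1. The marker list of mast cells had mean sums of 6060.4 and 15342 and that of basophils 10039 and 15917 in nonconfined and confined cPLA_2_ WT cells, and of 8470.4 and 5655 and of 14879 and 7727 in cPLA_2_ KO cells. *Hdc* was the most abundant gene of both lists over the 18 libraries, with means of 735 and 12369.5 in nonconfined and confined cPLA_2_ WT cells. Without *Hdc* the mast cell sum was 5325 and 2972 and the basophil sum 9304 and 3548 in these cells, and 7430.4 and 4197 and 13839 and 6269 in cPLA_2_ KO cells. All 9 genes of the basophil marker list and 6 of the 8 tested genes of the mast cell marker list are among the 10 described, so these sums mostly restate their values.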

How the data were processed

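The authors deposited 1 table of gene-level signal, DESeq2-normalized counts without length scaling, made with STAR 2.7.5a, featureCounts 1.5.0 and R 3.5.3 on GRCm39 (mm39). Conditions came from the sample labels. The protocol text mentions LPS for all samples, while titles and treatment entries name it for the LPS groups alone, and the latter were followed. Multiplying by each library's size factor gave whole reads for 100% of values within 0.001. One limma 3.58.1 fit (R 4.3.3, eBayes with trend) on log2(normalized count + 1) covered all 18 libraries with a mean per condition. Genes needed 10 normalized counts in 3 libraries, and p-values were adjusted by Benjamini-Hochberg over the 17875 genes tested. Alternatives were pseudocounts of 0.5 and 5, no filter or a filter of 100, the same total per library, TMM, edgeR 4.0.16, DESeq2 1.42.0, compared conditions alone, a replicate block, a log2 fold threshold of 1, a fold of 1.5 with unadjusted p, each library left out, and, chosen after seeing the data, no LPS libraries. Genes named are the 10 members, their 3 most like genes, 3 genes of the label check, and the most abundant and most changed genes of each list. *Cma1*, *Tpsb2* and genes below the filter were named after their values were seen. Members and lists were chosen with earlier results of these data known. The pipeline was tested on simulated data. Lengths came from GENCODE exons. Figures were drawn with matplotlib 3.10.9.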

Additional observations from a re-analysis of the deposited data

Results flagged for a closer look

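For 6 of the 10 genes the change with confinement differed between the genotypes when the difference itself was tested with limma, which called 25.8% of all genes. As the log2 change in cPLA_2_ KO minus that in cPLA_2_ WT cells, it was -3.58 for *Hdc* (limma, adjusted p = 2.2e-15) and 0.66 for *Prss34* (limma, adjusted p = 0.000135). It was 0.56 for *Mcpt8* (limma, adjusted p = 0.00187) and 0.76 for *Ms4a2* (limma, adjusted p = 0.00282). For *Gata2* it was -0.45 (limma, adjusted p = 0.0043) and for *Kit* 0.43 (limma, adjusted p = 0.00794). With the same total per library *Gata2* was at -0.26 and no longer called.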

How the results depend on the processing

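Of 2741 values of the 10 genes recomputed under the alternatives, 2598 were counted as kept. A further 125 lost the call, 9 gained it, 5 changed sign without a call by more than the spread between libraries, and 4 reversed. Kept values stayed on their side of the threshold. Some of them, not called, changed sign by no more than that spread, as did *Fcer1a* between LPS labels, from -0.31 to as much as 0.03. The counts of genes called, with main values of 10 for confinement in cPLA_2_ WT, 9 in cPLA_2_ KO, 6 for the interaction, 8 and 7 between genotypes in nonconfined and confined cells, and 8, 5 and 7 for LPS over both labels and by label, moved most where a fold threshold was added. With an absolute log2 fold change above 1 they were 5 for confinement in cPLA_2_ KO, and 1 each for the genotypes in nonconfined cells, the interaction and the 3 LPS comparisons, because fewer changes reach that size. The shares of all genes called were then 12%, 1.15% and 7.67%, and 29%, 27.4% and 27.9% for LPS over both labels and by label. With a fold of 1.5 and an unadjusted p they were 3 for the genotypes in nonconfined cells, 3 for the interaction, and 2, 2 and 4 for LPS over both labels, labelled cPLA_2_ WT and labelled cPLA_2_ KO, with 5.59%, 16.5%, 46.1%, 43.1% and 43.9% of all genes. With the same total per library LPS labelled cPLA_2_ WT gave 8, and 4 values reversed, with *Mcpt8* at -0.38, *Gata2* at -0.18 and *Cd200r3* at -0.37 under that label and *Gata2* at -0.36 over both labels; the cause was not tested. Over the libraries left out in turn, the counts ranged from 9 to 10, 9 to 9, 6 to 7, 5 to 8, 7 to 7, 6 to 8, 3 to 5 and 6 to 7 in the order of the main values, and stayed at 0 between LPS labels. In the same order the shares of all genes called were 52% to 57.2%, 40.7% to 47.2%, 22.7% to 27%, 4.23% to 11.7%, 34.3% to 40.3%, 69.6% to 71.6%, 58.9% to 63.3% and 59.6% to 63.9%. With the replicate number as a replicate block the counts were 9, 9, 6, 7, 7, 8, 5 and 7. For the first 5 of these the shares of all genes called were 56%, 45.5%, 24.8%, 7.74% and 38.4%. The low counts of *Il4* and *Fcer1a*, down to 8 and 14 reads, limit their precision.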

Other observations

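Some values of the 6 LPS libraries were alike across the labels, and others were not. Replicate 1 labelled cPLA_2_ WT and replicate 2 labelled cPLA_2_ KO held 1271 and 1476 normalized counts of *Ddx3y*, 2154 and 2216 of *Mcpt8*, 9543 and 9249.7 of *Hdc* and sums of 48039 and 48274 over 9 eosinophil markers. Replicate 2 labelled cPLA_2_ WT and replicate 1 labelled cPLA_2_ KO held 0 and 2.12 of *Ddx3y*, 1661 and 1737 of *Mcpt8*, 12518 and 12836 of *Hdc* and sums of 27896 and 27890.5. Replicate 3 of each label lay between these, with 662 and 783 of *Ddx3y*, 1942 and 1999 of *Mcpt8*, 10462.5 and 10841 of *Hdc* and sums of 38562 and 39142. In the same pairs *Gata2* had 885 and 761, 834 and 762, and 799 and 896, and *Cd200r3* had 187 and 231, 188 and 239.7, and 230.4 and 170.3. In replicate 3 of each label *Fcer1a* had 95.1 and 41.9 and *Cpa3* had 2795 and 3159.7. The pairs were set side by side after the values were seen, and no test was made of them.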
